A study of Rattus norvegicus with 6 samples.

Results

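The prostaglandin genes examined here were 10 genes picked by name from the raw count matrix, 4 for synthesis enzymes (Ptgs1, Ptgs2, Ptges and Ptgds) and 6 for receptors (Ptger1, Ptger2, Ptger3, Ptger4, Ptgir and Ptgfr), of 25689 genes in all. They were measured in neurons isolated from L1-L2 dorsal root ganglia (DRG) of wild-type spontaneously hypertensive rats (SHRs), whose age is labelled as 6 to 8 weeks, although the study's methods state an older age for SHRs. In 3 samples the bilateral perirenal adipose tissue had been removed (PRATA), and 3 samples came from sham-operated SHRs. The cells were collected 4 weeks after surgery, and neurons were flushed from the dish after 5 h of culture, a step that relies on neurons and glial cells attaching at different speeds. Both groups were thus SHRs that had been operated on, and samples of a normotensive strain were not analysed here. The series description names 3 rats for each operation. The sex of the rats, and whether each sample came from 1 animal, were not given in the sources used here, so the p-values below measure the spread between these samples.

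Prostaglandins are lipid mediators made from arachidonic acid, which phospholipases release from membranes. The cyclooxygenases encoded by Ptgs1 (constitutive in most tissues) and Ptgs2 (inducible) convert it to prostaglandin H2, and terminal synthases such as those encoded by Ptges and Ptgds turn this into prostaglandin E2 and D2. Sensory neurons carry receptors for prostaglandin E2 and prostacyclin, and signalling through those that raise cAMP is known to sensitize them to noxious and inflammatory stimuli.

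Total counts ranged from 5892967 reads in sham replicate 2 to 15226952 in sham replicate 1, and 14919 genes, with all 10 prostaglandin genes among them, passed the filter on low counts and were tested. Levels are given as CPM, read counts relative to the library size after scaling by edgeR's TMM factors. Since transcript lengths were not used, CPM compare samples and not genes. PRATA replicate 3 and sham replicate 1 stood apart from the other 4 samples in the signal recognition particle RNA, with 92.0% and 94.1% of 7SL reads on the copy Rn7sl1 against 45.3% to 47.4%. This split does not follow the operation, and the main results are also given for the other 4 samples alone. Of the cell type markers, those of sensory neurons summed to between 7900 and 11200 CPM after PRATA and between 5210 and 8140 CPM after sham, and all 12 were tested. Satellite glia markers summed to between 3240 and 6220 CPM after PRATA and between 4360 and 8610 CPM after sham, so RNA of other cells was present in every sample. Most of each satellite glia sum came from Apoe, at 2779 to 5229 CPM after PRATA and 3707 to 7473 CPM after sham. Of the 8 mast cell markers, 7 were below the filter on low counts, among them the proteases Cma1, Cpa3, Tpsab1 and Tpsb2, at no more than 0.624 CPM, and Mcpt1l1, which reached 1.73 CPM in sham replicate 1. In bulk samples, fewer cells of a type and less RNA per cell cannot be told apart.

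Of the 10 genes, 2 synthesis enzymes were lower after PRATA (Ptges and Ptgs2) and 2 receptors were higher (Ptger4 and Ptgir) when the quasi-likelihood test of edgeR was read at an unadjusted p under 0.05. Among all genes tested, 18.3% passed this threshold in either direction, 8.19% with a higher and 10.1% with a lower level after PRATA. No prostaglandin gene reached an adjusted p under 0.05, and neither did any other gene in edgeR (0% of 14919, with 2734 at an unadjusted p under 0.05), whereas DESeq2 placed 234 genes higher and 510 lower, and limma voom with sample quality weights 447 and 726. The median log2 fold change was -0.56 over the 4 enzymes and 0.35 over the 6 receptors, beside 0.02 over all genes tested. The groups did not overlap for Ptger4 and Ptgir, which were higher, as were 11.6% of all genes without overlap, nor for Ptges, which was lower, as were 11.2% of all genes.

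**Figure D1:**
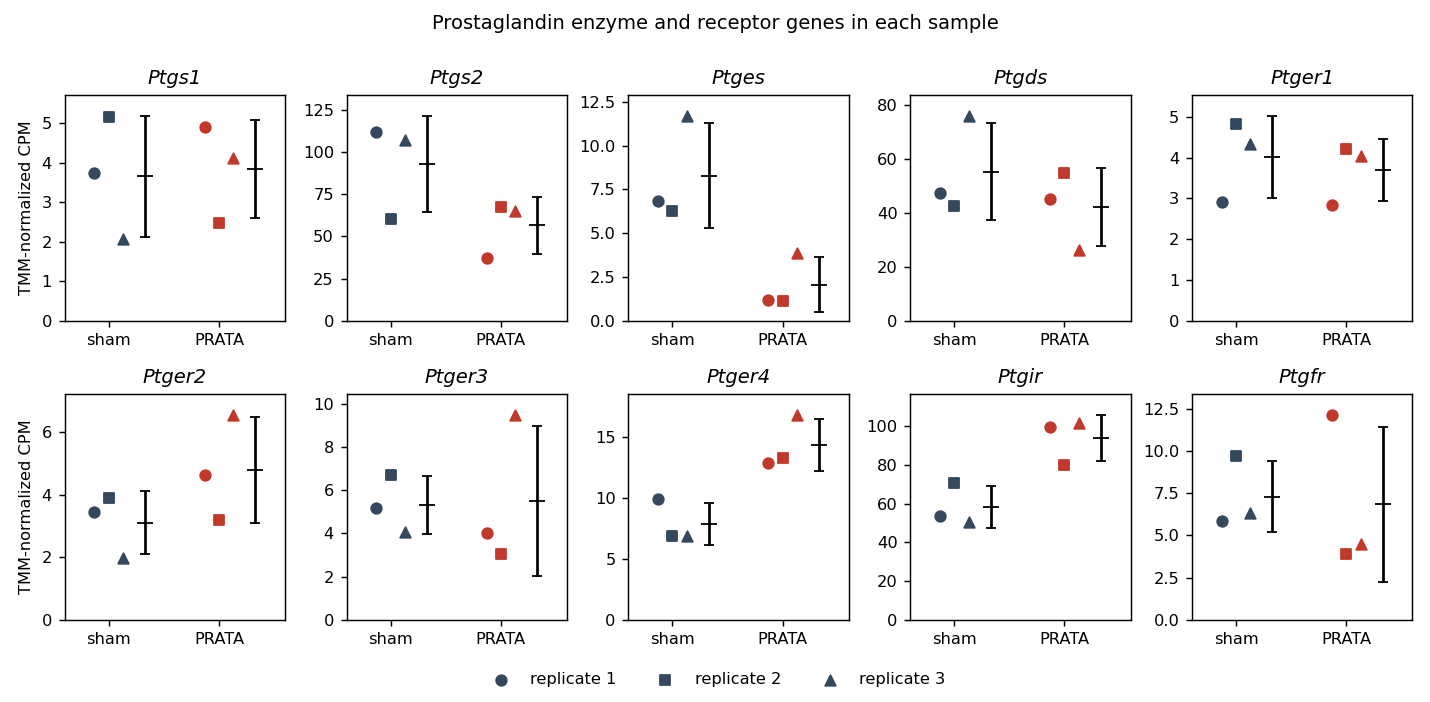
TMM-normalized CPM (vertical axes, each from 0) of the 4 enzyme and 6 receptor genes in the 3 sham and 3 PRATA samples, with marker shapes for replicate numbers and the mean and SD of each group as bars. The PRATA samples of Ptges (1.12 to 3.87 CPM) lie below every sham sample, those of Ptger4 and Ptgir lie above, and the other 7 genes overlap.

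The start regions of the 4 genes at an unadjusted p under 0.05 are shown because Ptgs2 and Ptges were both lower and Ptger4 and Ptgir both higher after PRATA. Each sequence is the RefSeq window from 250 bases before to 50 bases after the annotated gene start in build GRCr8, written 5′ to 3′ in the direction of the gene. Capitals mark matches, on either strand, to 6 short motifs: the TATA box (TATAAA), the CCAAT box (CCAAT), the GC box (GGGCGG), a part of the cAMP response element (TGACG), the AP-1 site (TGANTCA) and the E-box (CACGTG).
Ptgs2, chr13:64713813-64714112, plus strand: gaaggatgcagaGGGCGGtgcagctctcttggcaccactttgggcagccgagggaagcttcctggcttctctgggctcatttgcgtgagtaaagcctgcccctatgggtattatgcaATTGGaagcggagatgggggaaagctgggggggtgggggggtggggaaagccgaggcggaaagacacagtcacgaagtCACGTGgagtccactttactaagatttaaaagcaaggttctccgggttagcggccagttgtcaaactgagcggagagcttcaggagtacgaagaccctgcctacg
Ptges, chr3:34586938-34587237, minus strand: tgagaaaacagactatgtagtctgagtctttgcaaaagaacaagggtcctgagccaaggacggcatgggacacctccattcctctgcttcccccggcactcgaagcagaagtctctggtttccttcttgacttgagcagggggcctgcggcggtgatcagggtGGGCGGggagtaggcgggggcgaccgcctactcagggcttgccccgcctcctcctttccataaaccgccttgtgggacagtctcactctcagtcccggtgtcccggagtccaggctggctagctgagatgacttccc
Ptger4, chr2:56073473-56073772, minus strand: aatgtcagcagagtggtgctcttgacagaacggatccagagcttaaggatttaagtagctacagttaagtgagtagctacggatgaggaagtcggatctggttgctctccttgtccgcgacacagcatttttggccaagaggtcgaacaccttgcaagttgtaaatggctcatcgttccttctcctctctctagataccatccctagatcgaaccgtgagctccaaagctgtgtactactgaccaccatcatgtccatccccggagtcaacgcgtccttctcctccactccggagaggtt
Ptgir, chr1:86707440-86707739, plus strand: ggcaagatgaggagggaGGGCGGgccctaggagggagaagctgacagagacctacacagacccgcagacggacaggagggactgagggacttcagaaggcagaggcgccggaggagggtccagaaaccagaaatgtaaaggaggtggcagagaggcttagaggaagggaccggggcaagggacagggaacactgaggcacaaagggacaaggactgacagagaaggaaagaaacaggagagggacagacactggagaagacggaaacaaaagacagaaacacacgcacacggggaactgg
The Ptgs2 window held 3 of these motifs, an E-box at -55 relative to the start, a CCAAT box at -133 and a GC box at -238. An E-box was found in 6.42% of the 33469 rat windows of this length, a CCAAT box in 37.5% and a GC box in 33.1%. The Ptges window held a GC box at -87 and the Ptgir window a GC box at -233, while the Ptger4 window matched none of the 6 motifs. The bases after the annotated Ptger4 start begin with atg. This start may thus be that of the coding sequence, and the window may not hold the promoter. The TATA box, found in 14.2% of all windows, the part of the cAMP response element (21.2%) and the AP-1 site (7.33%) were matched in none of the 10 windows of the prostaglandin genes. A match is a string of letters in this window and was not tested as a binding site. The annotated gene starts were not checked as starts of transcription, so a lack of matches does not describe the promoter.

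Ptges (ENSRNOG00000006320) encodes microsomal prostaglandin E synthase, the inducible enzyme that acts downstream of the inducible cyclooxygenase. It was at 1.16, 1.12 and 3.87 CPM in PRATA replicates 1, 2 and 3 and 6.84, 6.24 and 11.7 CPM in sham replicates 1, 2 and 3. Every PRATA sample was below every sham sample, with PRATA replicate 3 the closest to the sham range. The means were 2.05 ± 1.58 CPM after PRATA and 8.27 ± 3.0 CPM after sham (SD, n = 3 each), a sham mean 4.03 times that of PRATA. The log2 fold change was -1.98 (standard error 0.53), with an edgeR adjusted p of 0.168, and the exact permutation test (two-sided) gave p = 0.10, the smallest that 3 against 3 samples allow. A smaller p was found for 3.43% of all genes tested. These levels rested on few reads, from 9 and 14 in PRATA replicates 1 and 2 to 124 in sham replicate 3. The 95% exact Poisson intervals, which cover counting error only, reached from 0.531 to 2.21 CPM in PRATA replicate 1 and from 4.46 to 8.50 CPM in sham replicate 2. In PRATA replicate 3 the interval of 2.87 to 5.12 CPM met that of sham replicate 2 but not that of sham replicate 1, which began at 5.56 CPM.

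Ptgs2 (ENSRNOG00000002525), the inducible cyclooxygenase and the target of selective anti-inflammatory drugs, was at 37.2, 67.6 and 65.1 CPM in PRATA replicates 1 to 3 and at 112, 60.1 and 107 CPM in sham replicates 1 to 3. Sham replicate 2 lay within the PRATA range, so the groups overlapped, while sham replicates 1 and 3 were above all PRATA samples. The means were 56.6 ± 16.9 CPM after PRATA and 93.1 ± 28.7 CPM after sham (SD, n = 3 each). The log2 fold change was -0.72 (standard error 0.31), with an edgeR adjusted p of 0.266 and an exact permutation p of 0.30. Its unadjusted p was over 0.05 when any one of PRATA replicates 1 and 3 and sham replicates 1 and 3 was left out, with log2 fold changes of -0.52, -0.83, -0.59 and -0.60. Without sham replicate 2 it was -0.95, with an edgeR adjusted p of 0.0755.

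The other cyclooxygenase gene, Ptgs1 (ENSRNOG00000007415), was low and overlapped fully. It ranged from 2.47 to 4.91 CPM after PRATA and from 2.08 to 5.15 CPM after sham, with means of 3.83 ± 1.24 and 3.65 ± 1.54 CPM (SD, n = 3 each). Its log2 fold change was 0.07 (standard error 0.43, edgeR adjusted p = 0.945), and it turned negative without PRATA replicate 1 or sham replicate 3. Ptgds (ENSRNOG00000015550), the lipocalin-type prostaglandin D synthase that glial and meningeal cells also make, was at 45.2, 55.1 and 26.3 CPM in PRATA replicates 1 to 3 and at 47.5, 42.6 and 76.2 CPM in sham replicates 1 to 3. The lowest value belonged to PRATA replicate 3 and the highest to sham replicate 3, with the other 4 samples between them and interleaved. Its log2 fold change was -0.40 (standard error 0.32, edgeR adjusted p = 0.532).

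Among the receptors, Ptger4 (ENSRNOG00000013240) encodes EP4, a receptor of prostaglandin E2 that couples to Gs and raises cAMP. It was at 12.9, 13.3 and 16.8 CPM in PRATA replicates 1, 2 and 3 and at 9.88, 6.87 and 6.90 CPM in sham replicates 1, 2 and 3. All PRATA samples were above all sham samples, and sham replicate 1 was the highest of the sham group. The means were 14.4 ± 2.17 CPM after PRATA and 7.88 ± 1.73 CPM after sham (SD, n = 3 each), 1.82 times as high after PRATA. The log2 fold change was 0.86 (standard error 0.24, edgeR adjusted p = 0.173), and 4.44% of all genes tested had a smaller p.

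Ptgir (ENSRNOG00000016756) encodes IP, the Gs-coupled receptor of prostacyclin, and took more reads than any other receptor of the list, from 453 to 1288 per sample. It stood at 99.8, 80.2 and 102 CPM in PRATA replicates 1, 2 and 3 and 53.7, 70.7 and 50.6 CPM in sham replicates 1, 2 and 3. The groups were apart, with PRATA replicate 2 and sham replicate 2 nearest to each other. The means were 93.9 ± 12 CPM after PRATA and 58.3 ± 10.8 CPM after sham (SD, n = 3 each), 1.61 times as high after PRATA. The log2 fold change was 0.69 (standard error 0.19, edgeR adjusted p = 0.171), with a smaller p for 4.03% of all genes tested. Without sham replicate 2 the log2 fold change was 0.85 and the edgeR adjusted p 0.0456, and over all 18 alternatives the adjusted p lay between 0.0351 and 0.550.

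Ptger2 (ENSRNOG00000050968), which encodes the other Gs-coupled receptor of prostaglandin E2, EP2, was at 4.65, 3.19 and 6.56 CPM in PRATA replicates 1 to 3 and at 3.45, 3.90 and 1.98 CPM in sham replicates 1 to 3. PRATA replicate 2 lay within the sham range. Its log2 fold change of 0.63 (standard error 0.40) had an edgeR adjusted p of 0.432. Taken as a sum over Ptger2, Ptger4 and Ptgir, the Gs-coupled receptors reached 117, 96.6 and 125 CPM in PRATA replicates 1 to 3 and 67.0, 81.5 and 59.5 CPM in sham replicates 1 to 3. This sum counts reads without regard to transcript length, and Ptgir gave most of them. It did not overlap between the groups.

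Ptger1, Ptgfr and Ptger3, which couple to Gq or Gi, each overlapped between the groups, as did the Gs-coupled Ptger2, and a difference between coupling classes was not tested. Ptger1 (ENSRNOG00000004094), which encodes the Gq-coupled EP1, ranged from 2.84 to 4.22 CPM after PRATA and from 2.90 to 4.84 CPM after sham, with a log2 fold change of -0.10 (standard error 0.34, edgeR adjusted p = 0.900). Ptgfr (ENSRNOG00000046468), the Gq-coupled receptor of prostaglandin F2α, was at 12.1 CPM in PRATA replicate 1 but at 3.90 and 4.51 CPM in the other PRATA samples, on both sides of the sham range of 5.87 to 9.68 CPM. Its log2 fold change of -0.10 (standard error 0.46) became -0.80 without PRATA replicate 1, with an edgeR adjusted p of 0.551, and 0.19 without PRATA replicate 2. Ptger3 (ENSRNOG00000010325) encodes EP3, which mainly couples to Gi and lowers cAMP. It was at 9.49 CPM in PRATA replicate 3 but at 4.0 and 3.03 CPM in PRATA replicates 1 and 2, beside 4.06 to 6.71 CPM after sham. The log2 fold change of 0.07 (standard error 0.46) thus rested on that sample and was -0.59 without it. Summed over Ptger1 and Ptgfr, the Gq-coupled receptors were at 10.5 ± 3.84 CPM after PRATA and 11.3 ± 2.92 CPM after sham (SD, n = 3 each).

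Within a library, the reads of 2 genes can be compared without any scaling between samples, and such ratios, chosen after the values were seen, are given as a description. For every 100 Ptgs2 reads, Ptges had 3.13, 1.65 and 5.95 reads in PRATA replicates 1 to 3 and 6.11, 10.4 and 10.9 reads in sham replicates 1 to 3. The highest PRATA value and the lowest sham value nearly met, and both came from the pair of samples that the 7SL reads set apart. Ptger4 had 34.7, 19.7 and 25.9 reads for every 100 Ptgs2 reads in PRATA replicates 1 to 3, against 8.83, 11.4 and 6.42 in sham replicates 1 to 3. The lowest PRATA value was thus well above the highest sham value. For Ptgir the ratio was 268, 119 and 157 in PRATA replicates 1 to 3 and 48.0, 118 and 47.1 in sham replicates 1 to 3, so that PRATA replicate 2 and sham replicate 2 all but coincided. The other ratios computed, those of Ptger2, Ptgs1 and Ptgds, overlapped between the groups. Since Ptgs2 itself had a lower mean after PRATA, a ratio to its reads is raised after PRATA for any gene whose own level did not differ.

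**Figure D2:**
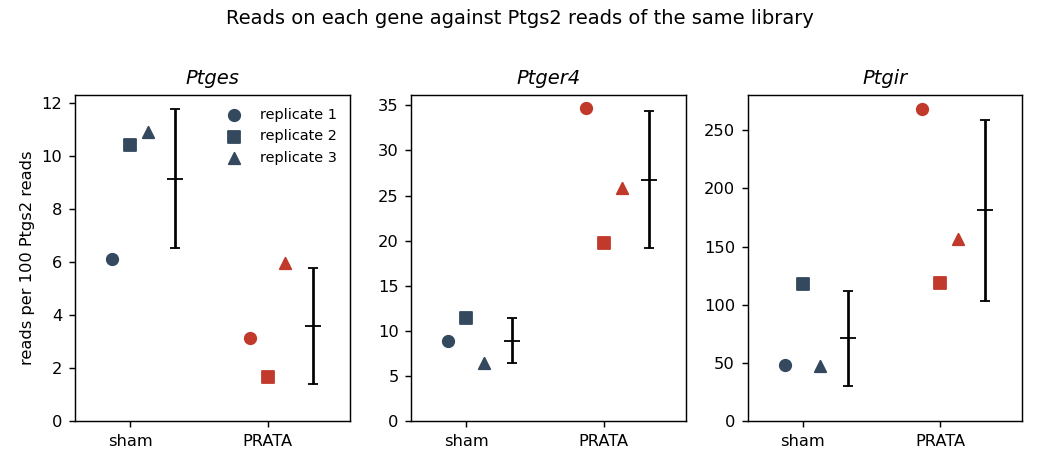
Reads on Ptges, Ptger4 and Ptgir for every 100 reads on Ptgs2 in the same library (vertical axes from 0), in 3 sham and 3 PRATA samples, with the mean and SD of each group as bars. Ptges is at 1.65 to 5.95 after PRATA and 6.11 to 10.9 after sham, Ptger4 at 19.7 to 34.7 and 6.42 to 11.4. The ratios of Ptger2, Ptgs1 and Ptgds, which overlapped, are not drawn.

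In the 4 samples left without PRATA replicate 3 and sham replicate 1, the log2 fold change was -2.99 for Ptges (adjusted p = 0.0905 in edgeR) and 0.92 for Ptger4 (adjusted p = 0.262). In the same 4 samples Ptgs2 was at -0.69 (adjusted p = 0.491) and Ptgir at 0.56 (adjusted p = 0.406), so 2 of the 10 genes passed an unadjusted p of 0.05. PRATA replicate 3 and sham replicate 1 by themselves give no test.

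**Figure D3:**
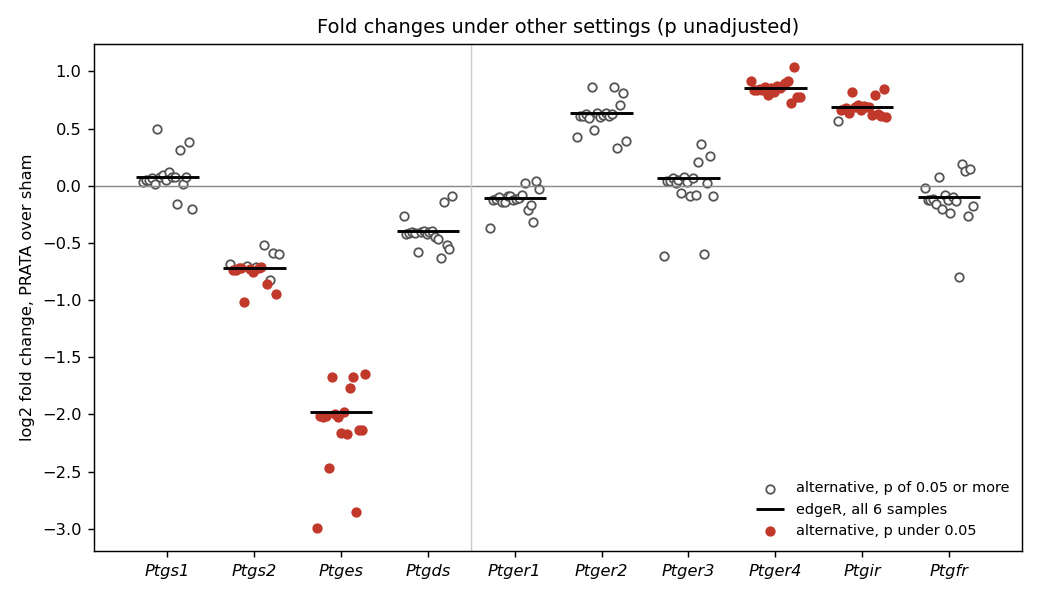
Log2 fold change, PRATA over sham, of the 10 prostaglandin genes (black lines: edgeR on all 6 samples) and under other filters, scalings, tests and sample sets (points, filled where the unadjusted p was under 0.05). Ptges stays between -2.99 and -1.64 and Ptger4 between 0.73 and 1.04, while Ptgs1, Ptger1, Ptger3 and Ptgfr lie on both sides of 0.

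The cell type markers moved in part with these genes. The mean log2 CPM of the 12 sensory neuron markers was 0.53 higher after PRATA and that of the 8 satellite glia markers 0.64 lower, and the PRATA and sham values overlapped for both (p = 0.20 each by two-sided exact permutation, where 0.10 is the smallest p that this design can give). After each sample's neuron marker mean was subtracted, the log2 difference of Ptgir went from 0.69 to 0.17 and that of Ptger4 from 0.88 to 0.35, with overlapping groups for both. For Ptges the same step gave a difference of the group means of -2.74, without overlap. After the satellite glia mean was subtracted, the difference of Ptgs2 was -0.08 with overlapping groups, that of Ptges -1.58 with overlapping groups, and that of Ptger4 1.51 without overlap. The mean log2 CPM of the 9 fibroblast and meninges markers differed by -0.46 and that of the 9 macrophage markers by 0.43. Both overlapped between the groups (p = 0.40 each by two-sided exact permutation). Subtracting a list mean shifts the difference of every gene by the same amount. The share of all genes without overlap after this step was not computed. Against the 9 fibroblast and meninges markers, Ptges differed by -1.75 and Ptger4 by 1.34, both without overlap, and against the 9 macrophage markers by -2.64 without overlap and 0.45 with overlap. Ptgs2 was at -1.24 against the neuron markers and -0.25 against the fibroblast and meninges markers, both with overlap, and at -1.14 without overlap against the macrophage markers. Ptgir was at 0.27 against the macrophage markers and 1.33 against the satellite glia markers, both with overlap. Against the fibroblast and meninges markers it was at 1.16 without overlap. The part of cell makeup in these differences was not tested. These subtractions were added after the data were seen.

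**Figure D4:**
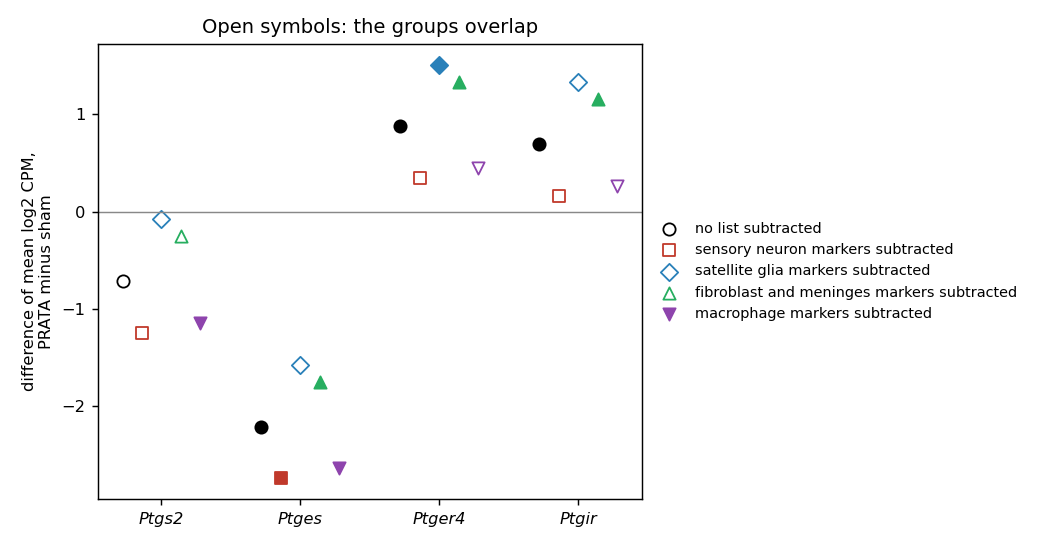
Difference of the mean log2 CPM, PRATA minus sham (vertical axis), for the 4 genes at an unadjusted p under 0.05, as measured and after the mean log2 CPM of a marker list was subtracted in each sample. Open symbols mark overlapping groups. Ptgir falls from 0.69 to 0.17 against the neuron markers and to 0.27 against the macrophage markers. It is at 1.16 against the fibroblast and meninges markers and 1.33 against the satellite glia markers. Ptgs2 is at -0.08 against the satellite glia markers.

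The other genes of the pathway were described in 5 lists of 49 genes, of which 34 were tested, 13 were below the filter on low counts and 2 (Ptgis and Ptgdr) were not matched. At an unadjusted p under 0.05, 3 of the 34 were higher and 5 lower after PRATA, or 23.5% beside 18.3% of all genes. These lists were chosen with earlier results of these data known, so the shares are a description. Of the prostanoid synthases and their helpers, 2 of 6 genes tested (33.3%) were lower and 0 higher, beside 10.1% of all genes lower and 8.19% higher. By sign alone, 3 of the 6 had a positive log2 fold change and 3 a negative one. Prxl2b was higher without overlap, as were 11.6% of all genes (log2 fold change 0.77, edgeR adjusted p = 0.303). Akr1b1, an aldo-keto reductase that can form prostaglandin F2α, was at 43.4 to 50.1 CPM after PRATA and 57.1 to 129 CPM after sham (log2 fold change -1.02, edgeR adjusted p = 0.170). Ptges3, the cytosolic prostaglandin E synthase that is also the HSP90 co-chaperone p23, was at 130 to 166 and 177 to 212 CPM (-0.40, adjusted p = 0.271), and its reads are uncertain because the table also lists the near copy Ptges3l1. Its unadjusted p was over 0.05 without PRATA replicate 1, PRATA replicate 2, sham replicate 1 or sham replicate 3 (-0.50 to -0.32 over the 6 fits that each left out 1 sample). The third prostaglandin E synthase gene, Ptges2, had a log2 fold change of 0.01.

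Of the genes for breakdown and transport, 2 of 6 tested (33.3%) were lower and 0 higher, beside 10.1% of all genes lower and 8.19% higher. Slco2a1 encodes the transporter that takes prostaglandins up into cells for breakdown. It was at 1.55, 1.27 and 2.69 CPM in PRATA replicates 1 to 3 and at 5.25, 4.68 and 8.50 CPM in sham replicates 1 to 3. The groups were apart, with a log2 fold change of -1.73 (standard error 0.42, edgeR adjusted p = 0.156). The PRATA levels rested on few reads, since 3 counts correspond to 0.387 CPM in PRATA replicate 1 and 0.239 CPM in PRATA replicate 2. Abcc4, an export pump for prostaglandins and cyclic nucleotides, was at 24.6 to 25.8 CPM after PRATA and 26.7 to 40.1 CPM after sham (-0.51, adjusted p = 0.244), and Slco3a1, the gene with the highest CPM averaged over the 6 samples, had a log2 fold change of -0.67 (adjusted p = 0.303). These averages, used to choose 1 gene in each list, were not corrected for transcript length and do not rank the genes by level. The unadjusted p of Abcc4 stayed under 0.05 only when sham replicate 1 was left out, and not without any of the other 5 samples (log2 fold changes of -0.70 to -0.40). Hpgd, the main prostaglandin dehydrogenase, was below the filter, with at most 0.567 CPM in any sample.

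Of the 15 tested genes of arachidonic acid release, 2 were higher and 1 was lower, a share of 20.0% that is near the 18.3% of all genes. Pla2g4a, the cytosolic phospholipase A2 that feeds the cyclooxygenases, was at 0.398 to 0.633 CPM after PRATA and 1.04 to 2.07 CPM after sham (log2 fold change -1.54, edgeR adjusted p = 0.208). Daglb and Mgll, which make and cleave the endocannabinoid 2-AG and so release arachidonic acid from it, were higher, by 0.58 (adjusted p = 0.221) and 0.57 (adjusted p = 0.238) on the log2 scale. When 1 sample was left out, the unadjusted p was over 0.05 for Pla2g4a without PRATA replicate 1, PRATA replicate 2 or sham replicate 1 (-1.74 to -1.23 over the 6 such fits) and for Daglb without PRATA replicate 1, PRATA replicate 3 or sham replicate 3 (0.45 to 0.69). For Mgll it was over 0.05 without PRATA replicate 1, PRATA replicate 3, sham replicate 2 or sham replicate 3 (0.43 to 0.73). Anxa1, chosen for its mean CPM in this list, had a log2 fold change of -0.15. In the lipoxygenase and leukotriene list, 4 of 12 genes were tested and Mgst3 was higher (0.80, adjusted p = 0.228), while Lta4h, chosen for its mean CPM, was at 0.24. The unadjusted p of Mgst3 was over 0.05 without PRATA replicate 1, PRATA replicate 3, sham replicate 1 or sham replicate 2 (0.55 to 1.05 over the 6 fits). The other receptors and partners tested, Ptgdr2, Tbxa2r and Ptgfrn, had 0 genes at an unadjusted p under 0.05 in either direction, and Ptgfrn, chosen for its mean CPM, had a log2 fold change of -0.18.

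**Figure D5:**
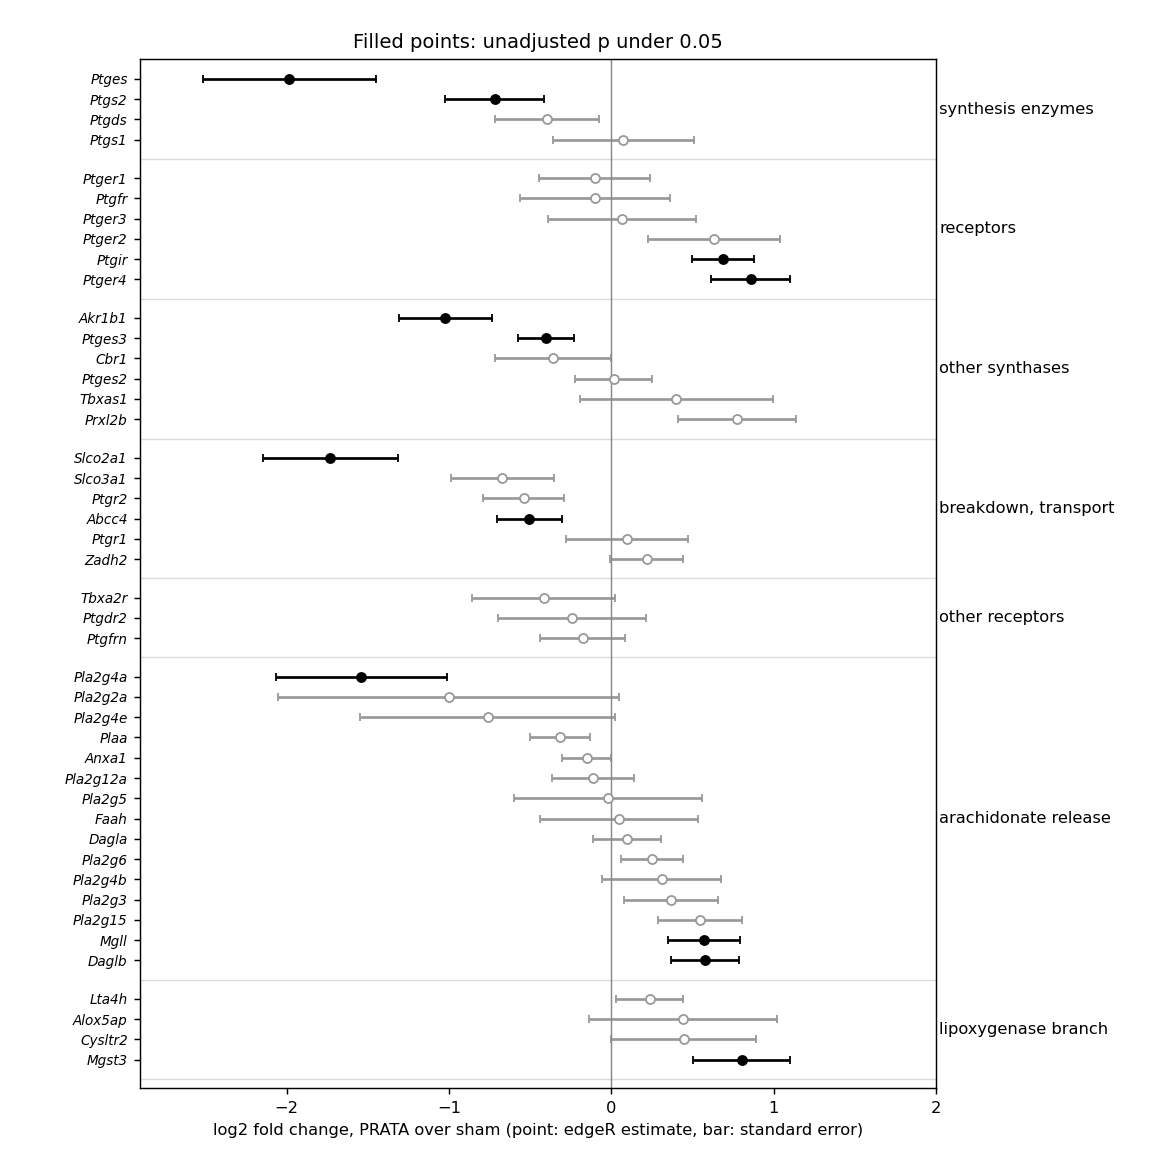
Log2 fold change, PRATA over sham, with its standard error (horizontal axis) for the 10 prostaglandin genes and the 34 tested genes of the 5 pathway lists, filled where the unadjusted edgeR p was under 0.05. Ptges (-1.98), Slco2a1 (-1.73) and Pla2g4a (-1.54) lie farthest to the left among the filled points and Ptger4 (0.86) farthest to the right. Pla2g4a rested on few reads, with at most 2.07 CPM in any sample, and so did Slco2a1 after PRATA, at 1.27 to 2.69 CPM.

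Ptgs2 is induced by cytokines and, as an early response gene, by depolarization and stress, so both programs were described beside it. Of the 11 genes tested in the cytokine list, Il1a was higher (log2 fold change 1.58, edgeR adjusted p = 0.224) and Il1rap, the accessory chain of the interleukin-1 receptor, lower (-1.32, adjusted p = 0.176), both with overlapping groups. These 2 genes are 18.2% of the list, beside 18.3% of all genes. The unadjusted p of Il1a was over 0.05 without PRATA replicate 2 (log2 fold change 0.89), sham replicate 2 or sham replicate 3. Il1b was at 6.72 to 27.9 CPM after PRATA and 5.93 to 13.7 CPM after sham, and Nfkbia, chosen for its mean CPM, had a log2 fold change of 0.54 (adjusted p = 0.566). Of 12 early response genes, 5 were higher and 1 lower at this threshold (50.0%, beside 18.3% of all genes, 8.19% higher and 10.1% lower). Both lists were chosen with earlier results of these data known, so their shares are a description and not a test. Fos was at 379, 474 and 297 CPM in PRATA replicates 1 to 3 and at 217, 96.3 and 77.5 CPM in sham replicates 1 to 3, without overlap (log2 fold change 1.56, adjusted p = 0.167). Fosb (2.1, adjusted p = 0.203), Atf3 (1.43, 0.182), Nr4a1 (1.36, 0.229) and Jun (0.89, 0.233) were also higher but overlapped between the groups, whereas Fosl1 was lower without overlap (-1.10, adjusted p = 0.175). Without single samples Fosb ranged from 1.68 to 3.19, the highest without sham replicate 1, and its unadjusted p was over 0.05 without PRATA replicate 2 or sham replicate 2. Nr4a1 was at 0.75 without PRATA replicate 2, and its unadjusted p was over 0.05 without that sample, sham replicate 2 or sham replicate 3. Jun lost this threshold without PRATA replicate 1, PRATA replicate 2, sham replicate 2 or sham replicate 3 (0.63 to 1.17). Of the 12 early response genes, 10 had a positive log2 fold change and 2 (Fosl1 and Ier3) a negative one. That of Ptgs2 was negative (-0.72), and a shared control was not tested.

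The pattern over the 6 samples was also compared with that of all genes tested, by the root-mean-square difference of log2 CPM centred on its mean. For Ptges, the enzyme gene with the smallest p, the closest were Ccn2 (0.223), Srm (0.245) and Hmox1 (0.315). Ccn2 was at 81.6 to 228 CPM after PRATA and 326 to 632 CPM after sham. For Ptgir, the receptor gene with the smallest p, the closest were Atcay (0.0208), Tmx4 (0.0466) and Cntn2 (0.0499). Atcay was at 99.1 to 131 CPM after PRATA and 63.4 to 87.9 CPM after sham. With 6 samples that share their libraries, this likeness is a description.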

How the data were processed

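RNA of isolated L1-L2 DRG neurons was sequenced in 3 PRATA and 3 sham samples, grouped by their GEO titles. The authors deposited raw counts of reads per gene, without normalization. The study's methods name HISAT2, StringTie and Cuffdiff, whereas the submitters' processing notes name STAR 2.7.3a, RSEM and DESeq2. The counting tool, strand setting, genome build and annotation were not given in the sources used here, so the treatment of reads shared between near copies is unknown.

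The test was run with edgeR 4.0.16 in R 4.3.3 (filterByExpr, min.count 10 and min.total.count 15, TMM factors from 0.953 to 1.10, quasi-likelihood test without covariates, two-sided). P-values were adjusted by the Benjamini-Hochberg method across the 14919 tested genes, never over a list alone. The alternatives used limma 3.58.1, DESeq2 1.42.0 and other filters, scalings and samples. A depth of 3 counts corresponds to 0.207 to 0.468 CPM. The fits were tested on simulated data, and no replicate pair had counts so alike that both could come from 1 library (chi-square per degree of freedom of 25.3 or more). Marker means used log2(CPM + 1), and pattern likeness log2(CPM + 0.1). Figures were drawn with matplotlib 3.10.9.

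The members and the 17 gene lists were chosen with earlier results of these data known. Named genes are the 10 members, every listed pathway gene whose unadjusted p was under 0.05, the most highly counted gene of each such list (mean CPM), and the 3 genes closest in pattern to one enzyme and one receptor. Il1b, Ptges2, Prxl2b, Hpgd, Ptgdr2 and Tbxa2r were named after their values were seen. Of the list genes, 1 (Ptgr3) matched through the symbol Zadh2 and 4 were not matched.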

Additional observations from a re-analysis of the deposited data

How the results depend on the processing

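Ptges was lower at an unadjusted p under 0.05 in all 17 alternative edgeR, limma and DESeq2 fits that tested it, between -2.99 and -1.64 in log2 fold change, with an adjusted p from 0.0351 (limma voom with sample quality weights) to 0.550, and DESeq2 gave it no adjusted p. The requirement of at least 10 counts in every sample removed it. Ptger4 was higher at this threshold in 18 of 18 alternatives (0.73 to 1.04, adjusted p from 0.0533 to 0.550) and Ptgir in 17 of 18 (0.56 to 0.85). The adjusted p of Ptgir was under 0.05 with DESeq2 (0.0436), voom (0.0351) and edgeR without sham replicate 2 (0.0456). Ptgs2 kept its direction in 18 of 18 alternatives (-1.01 to -0.52), with an unadjusted p under 0.05 in 11 and adjusted p from 0.0634 to 0.619. The number of the 10 genes at an unadjusted p under 0.05 was 2 in the 4 samples of the larger 7SL group and between 3 and 4 when single samples were left out. Over all genes, the count at this threshold was 4606 with voom, and between 1406 and 4254 when single samples were left out. At an adjusted p under 0.05, DESeq2 called 234 genes higher and 510 lower, voom 447 and 726, the 4 samples of the larger 7SL group 9 and 4, and leaving out single samples 0 to 162 and 0 to 559, the highest without sham replicate 2. The sources used here do not say whether the replicate numbers pair the samples. Deviations from the group means had a mean correlation of -0.245 between samples of one number, across genes. With 3 samples in each group this cannot exclude a pairing. A fit with the replicate block placed 1528 genes at an unadjusted p under 0.05, 3 of them among the 10 prostaglandin genes, with Ptges at -2.16 (adjusted p = 0.461), Ptger4 at 0.87 (0.461), Ptgir at 0.70 (0.462) and Ptgs2 at -0.71 (0.510). Scaling by library size alone gave 835 higher and 1676 lower genes at an unadjusted p under 0.05, beside 1222 and 1512 with TMM.

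Among the 10 members and the genes that the naming rule took from the lists, which were followed through the alternatives, signs changed for 6, each with an unadjusted p over 0.05 in the edgeR fit. When single samples were left out, Ptgs1 ranged from -0.203 to 0.381 (negative without PRATA replicate 1 or sham replicate 3), Ptger1 from -0.318 to 0.0452 (positive without PRATA replicate 1 or sham replicate 2), Ptger3 from -0.593 to 0.367 (negative without PRATA replicate 3 or sham replicate 3), Ptgfr from -0.802 to 0.190 (positive without PRATA replicate 2, PRATA replicate 3 or sham replicate 2) and Ptgfrn from -0.468 to 0.00157 (positive without PRATA replicate 3). Ptger3 was at -0.0639 with limma-trend, -0.0874 with the replicate block, -0.614 in the 4 samples of the larger 7SL group and -0.0802 with a term for that group. Ptgfr was at 0.0734 with voom, and in the 4 samples Ptgfrn was at 0.16 and Lta4h at -0.0528. The causes were not tested.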

Other observations

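The markers of the remaining cell types are given by the number of genes at an unadjusted edgeR p under 0.05 and their median log2 fold change, beside 18.3% of all genes tested at this threshold (8.19% higher, 10.1% lower). Of 8 myelinating Schwann cell genes 2 were higher and 0 lower (25%, median 0.746), with summed levels of 860 to 1500 CPM after PRATA and 660 to 861 CPM after sham. Of 9 fibroblast and meninges genes 1 was lower (11.1%, median -0.407), and of 9 macrophage genes 1 was higher (11.1%, median 0.683). Of 7 endothelial genes 1 was higher (14.3%, median 0.317), and 0 of 8 mural cell genes passed in either direction (median 0.198). Of 12 sensory neuron genes 3 were higher (25%, median 0.44) and of 8 satellite glia genes 1 was lower (12.5%, median -0.529). Kit, the one mast cell list gene that was tested and also a gene of sensory neurons, was at 92.1 to 112 CPM after PRATA and 47.8 to 75.5 CPM after sham.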
